A study of Mus musculus with 21 samples.

Results

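Mcm4, Mcm5, Mcm6, Pcna, Tipin, Rrm2, Tyms and Ccne2 are 8 genes that cells use to copy their DNA in S phase, and their signals are followed here through 7 sets of thymocyte arrays. The 8 genes were taken by name from the authors' tables of changed genes, each has 1 probe set, and all 8 are among the 28923 probe sets tested, of which 2111 carry a gene name. RNA from flow-sorted thymocytes that carry both CD4 and CD8 was hybridised to 21 Affymetrix Mouse Gene 1.0 ST arrays, with 3 arrays in each of 5 groups and 6 arrays from wild-type mice. All mice were C57 Bl/6 and 3 to 6 weeks old. The VP16 group carried a transgene for HDAC7, a histone deacetylase of T cell precursors, fused to the transcriptional activation domain VP16. The knockout group lacked HDAC7. The deltaP peptide group carried the OT-2 T cell receptor transgene and a transgene for an HDAC7 mutant named deltaP, and was injected with the agonist peptide of that receptor 3 hours before harvest. Its genotype label names OT-2 alone, and the deltaP transgene comes from its title and source. The peptide OT-2 group carried OT-2 alone and received the same injection, and the OT-2 group carried OT-2 and was not treated. Wild-type mice were untreated. The sources used here do not give the promoter that drives each transgene or the way Hdac7 was deleted.

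S-phase genes are switched on together as a cell leaves G1, largely by E2F transcription factors once cyclin-dependent kinases release them from the retinoblastoma family. MCM proteins form the ring that unwinds DNA at the fork, PCNA is the sliding clamp that holds polymerases on DNA, and TIPIN, with its partner Timeless, steadies stalled forks. RRM2 is the small subunit of ribonucleotide reductase and TYMS is thymidylate synthase, so both supply building blocks of DNA, while cyclin E2 activates CDK2 at the G1 to S transition. In the thymus, double-positive cells are born as large cycling blasts and then stop dividing before they are selected on their T cell receptor. In RNA from a whole sorted population, fewer cells in S phase and less of an RNA per cell cannot be told apart.

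Promoter windows from RefSeq (build GRCm38.p6, 250 bases before to 50 after the gene's start) were matched for 5 of the 8 genes, Mcm5, Mcm6, Pcna, Rrm2 and Tyms, and Mcm4, Tipin and Ccne2 are named only. They were searched on both strands for 4 words of the E2F site, TTTCCCGC, TTTCGCGC, TTTGCCGC and TTTGGCGC, and for CCAAT. Shown are the 160 bases before the start for the MCM subunits whose windows hold E2F words, and for Tyms, one of the 2 genes with the largest VP16 difference, whose window holds neither motif. Capitals mark the matches.
Mcm5, chr8:75109349-75109508, plus strand: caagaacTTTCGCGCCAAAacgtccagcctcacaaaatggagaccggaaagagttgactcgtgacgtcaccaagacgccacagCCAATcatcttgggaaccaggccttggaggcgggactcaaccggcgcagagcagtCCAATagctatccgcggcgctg
Mcm6, chr1:128359706-128359865, minus strand: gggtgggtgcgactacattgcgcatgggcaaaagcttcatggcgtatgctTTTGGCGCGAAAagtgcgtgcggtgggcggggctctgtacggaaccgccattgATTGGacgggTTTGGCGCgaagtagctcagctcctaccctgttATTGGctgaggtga
Tyms, chr5:30073626-30073785, minus strand: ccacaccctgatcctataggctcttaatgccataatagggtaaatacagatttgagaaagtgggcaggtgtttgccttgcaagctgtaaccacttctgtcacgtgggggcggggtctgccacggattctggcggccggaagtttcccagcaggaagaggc
The Mcm5 window holds 2 E2F words that overlap each other, at positions -153 and -149 from the start and on opposite strands. The Mcm6 window holds 3, of which those at -110 and -106 overlap on opposite strands and the other lies at -47. The windows of Pcna, Rrm2 and Tyms hold 0 of the 4 E2F words. CCAAT stands 3 times in the Mcm5 window, 2 times in that of Mcm6 (read there as ATTGG) and 1 time each in those of Pcna and Rrm2. Of 32851 promoter windows of this length, 2.26% hold an E2F word and 37.4% hold CCAAT. A match describes letters and no binding was measured.

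The deposited values are log2 RMA signals, so a difference of 1 is a doubling or halving, and a level of one probe set cannot be set against another's. Value columns fall into 4 scales by their decimals and spread: knockout, peptide OT-2 and wild-type arrays 1 to 3 (9 arrays), VP16 and wild-type arrays 4 to 6 (6 arrays), OT-2, and deltaP. Median signals per array ranged from 6.01 to 6.26, and arrays of a group correlated at 0.987 to 0.997 across all probe sets tested. The Hdac7 probe set read 10.98, 10.94 and 10.97 in knockout against 11.42, 11.01 and 11.48 in wild-type arrays 1 to 3, a difference of -0.34 ± 0.14 (SE) that did not pass the test (limma, adjusted p = 0.664). Which part of the gene was deleted is not given, so this probe set need not report the deletion. In VP16 the same probe set rose by 0.44 ± 0.07 (limma, adjusted p = 0.0351).

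**Figure D1:**
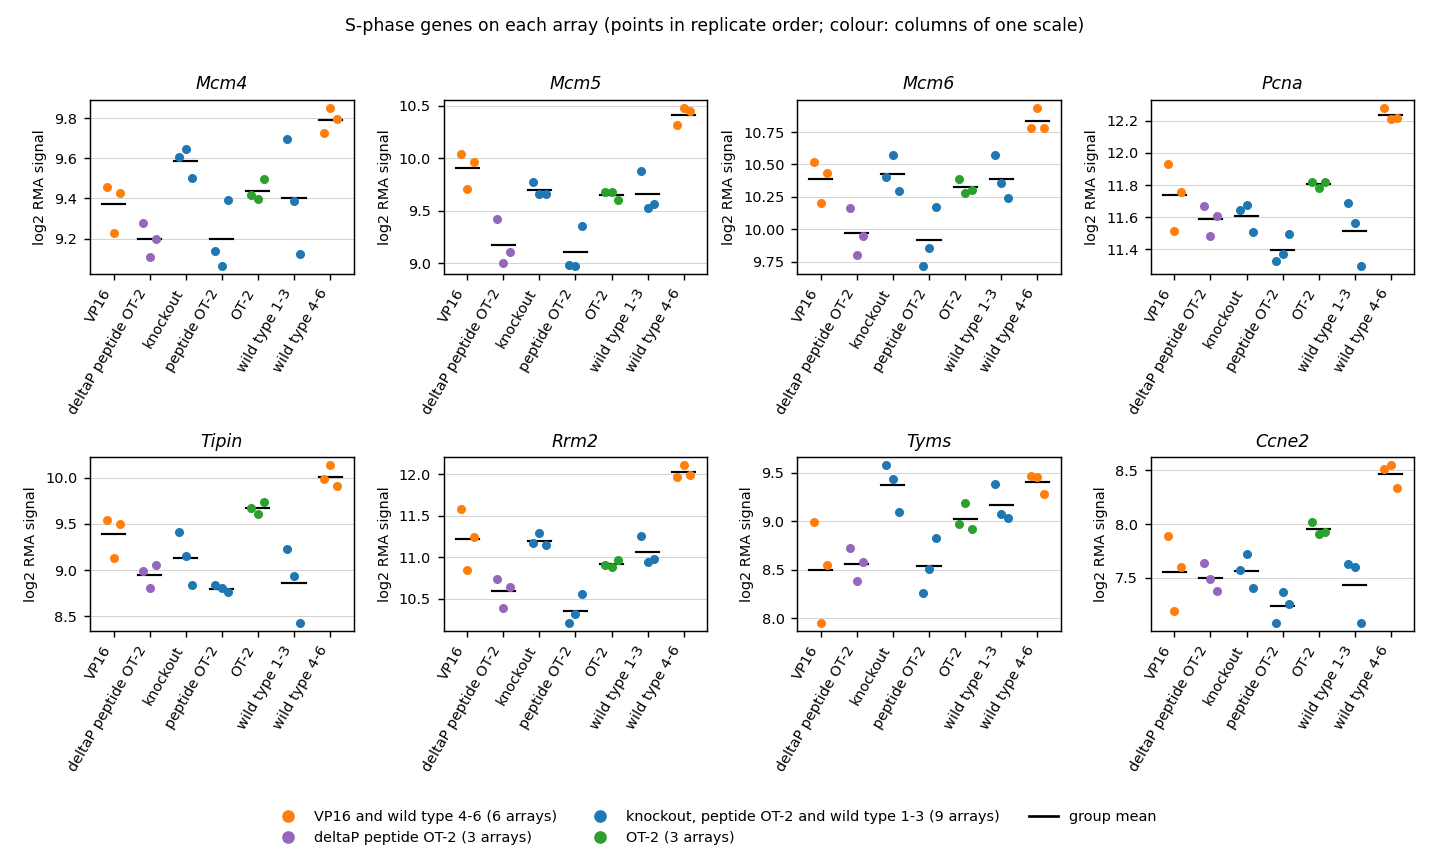
Log2 RMA signal (vertical axis, one scale per panel) of the 8 genes on each of the 21 arrays, by group, with group means as bars and colours for columns that share a scale. In all 8 panels the VP16 arrays lie below wild-type arrays 4 to 6, while knockout arrays overlap wild-type arrays 1 to 3.

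VP16 thymocytes were compared with wild-type arrays 4 to 6 to see what the HDAC7-VP16 fusion changes. All 8 genes were lower on every VP16 array than on every wild-type array, with mean signals at 53.2% to 74.7% of the wild-type level. Ccne2 passed the test (limma on all probe sets, adjusted p under 0.05), and the other 7 genes had adjusted p from 0.0506 to 0.0779. Across all probe sets 1.43% passed in either direction and 0.736% passed as lower, and 12.1% were lower on every array. The authors' deposited table of VP16 genes lists all 8 as lower, with q values from 1.41% to 2.32%, and this listing is how the probe sets got their names. Their direction here is thus not independent evidence.

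Among the helicase subunits, Mcm5 read 10.04, 9.71 and 9.96 in VP16 against 10.31, 10.48 and 10.45 in wild-type arrays 4 to 6, a difference of -0.51 ± 0.10 (SE; limma, adjusted p = 0.0516). Mcm4 read 9.46, 9.23 and 9.43 in VP16 and 9.72, 9.85 and 9.80 in wild type. Mcm6 read 10.52, 10.21 and 10.43 in VP16 and 10.78, 10.94 and 10.79 in wild type. The subunits differed by similar amounts, -0.42 ± 0.08 for Mcm4 and -0.45 ± 0.10 for Mcm6, which are the smallest differences among the 8 genes. Pcna, the clamp, read 11.93, 11.51 and 11.76 in VP16 against 12.28, 12.21 and 12.22 in wild type, a difference of -0.50 ± 0.11 (adjusted p = 0.058 by limma). Tipin, the fork-protection gene, read 9.54, 9.13 and 9.50 in VP16 against 9.99, 10.13 and 9.91 in wild type (-0.62 ± 0.12, limma adjusted p = 0.0506). For both genes the second VP16 array was the lowest of the 6.

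The genes of nucleotide supply and the cyclin stood further apart. Rrm2 read 11.59, 10.85 and 11.24 in VP16 against 11.97, 12.11 and 11.99 in wild type, a difference of -0.80 ± 0.16 (limma, adjusted p = 0.0568). Tyms read 8.99, 7.95 and 8.55 in VP16 against 9.47, 9.46 and 9.29 in wild type. Its difference of -0.91 ± 0.22 had the widest error of the 8, since its VP16 arrays ranged over more than a doubling, and the adjusted p was 0.0779 (limma). Ccne2, for cyclin E2, fell to 7.89, 7.19 and 7.60 in VP16, against 8.51, 8.55 and 8.34 in wild type. The fall of Ccne2 was -0.91 ± 0.16 (adjusted p = 0.0431 by limma), or 53.3% of the wild-type level. The median difference of the 8 genes was -0.56, beside 0.02 over all probe sets. The count of genes that passed moved with the fit: it was 8 without VP16 replicate 1, 0 without any one of the other 5 arrays, 0 after quantile normalization, 0 against all 6 wild-type arrays, 5 on median-centred arrays, 6 with a trended and robust variance, and 8 with dim probe sets left out. All 8 differences stayed negative in each of these fits. With dim probe sets left out 1720 probe sets passed in all, beside 413 with the dim ones kept. The number was 34 against all 6 wild-type arrays, and 35 to 791 with 1 array left out.

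Loss of HDAC7 was assessed by setting knockout against wild-type arrays 1 to 3. All 8 genes had slightly higher means in knockout, by 0.03 to 0.27 on the log2 scale, and 0 of 8 passed the test (limma, adjusted p from 0.928 to 0.993), where 0.809% of all probe sets passed, 0.443% as higher. At an unadjusted p under 0.05 the count was also 0, and the arrays overlapped for each gene. Of all probe sets 56.0% had lower means in knockout. The authors' deposited table of knockout genes holds 0 of the 8.

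Mcm4 read 9.61, 9.65 and 9.50 in knockout against 9.70, 9.39 and 9.12 in wild type, a difference of 0.18 with a 95% interval from -0.16 to 0.53. Mcm5 read 9.78, 9.66 and 9.66 in knockout and 9.88, 9.52 and 9.57 in wild type (0.04, interval from -0.24 to 0.32). Mcm6 read 10.40, 10.57 and 10.30 in knockout and 10.57, 10.36 and 10.24 in wild type (0.03, interval from -0.26 to 0.32). Wild-type replicate 1 was the highest array of its group for all 3 subunits. Pcna read 11.65, 11.68 and 11.51 in knockout and 11.69, 11.56 and 11.30 in wild type (0.10, interval from -0.20 to 0.39). Tipin had the largest difference, with 9.41, 9.16 and 8.84 in knockout against 9.23, 8.94 and 8.43 in wild type (0.27, interval from -0.23 to 0.77). In both genes the third array of each group was the lowest.

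Rrm2 read 11.17, 11.29 and 11.15 in knockout and 11.26, 10.95 and 10.98 in wild type (0.14, interval from -0.13 to 0.41). Tyms read 9.58, 9.43 and 9.10 in knockout and 9.39, 9.07 and 9.03 in wild type (0.21, interval from -0.15 to 0.56). Ccne2 read 7.57, 7.72 and 7.40 in knockout and 7.63, 7.60 and 7.08 in wild type (0.13, interval from -0.25 to 0.51). These intervals come from the fit without a block, and those of all 8 genes reach from below 0 to above it. Between same-numbered arrays, Tipin was higher in knockout in 3 of 3 pairs (by 0.185, 0.215 and 0.413), as was Tyms (by 0.191, 0.362 and 0.067), and the other 6 genes were higher in 2 of 3. With the number as a block the errors were smaller for every gene but Rrm2, and 0 of 8 passed (limma, adjusted p from 0.491 for Tipin to 0.969 for Mcm6). The blocked interval ran from 0.02 to 0.52 for Tipin, from -0.05 to 0.46 for Tyms and from -0.11 to 0.48 for Mcm4. Leaving out wild-type replicate 3 turned the sign of 4 genes, to -0.0033 for Mcm5, -0.041 for Mcm6, -0.0145 for Pcna and -0.047 for Ccne2, in a fit that leaves knockout replicate 3 without its partner.

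**Figure D2:**
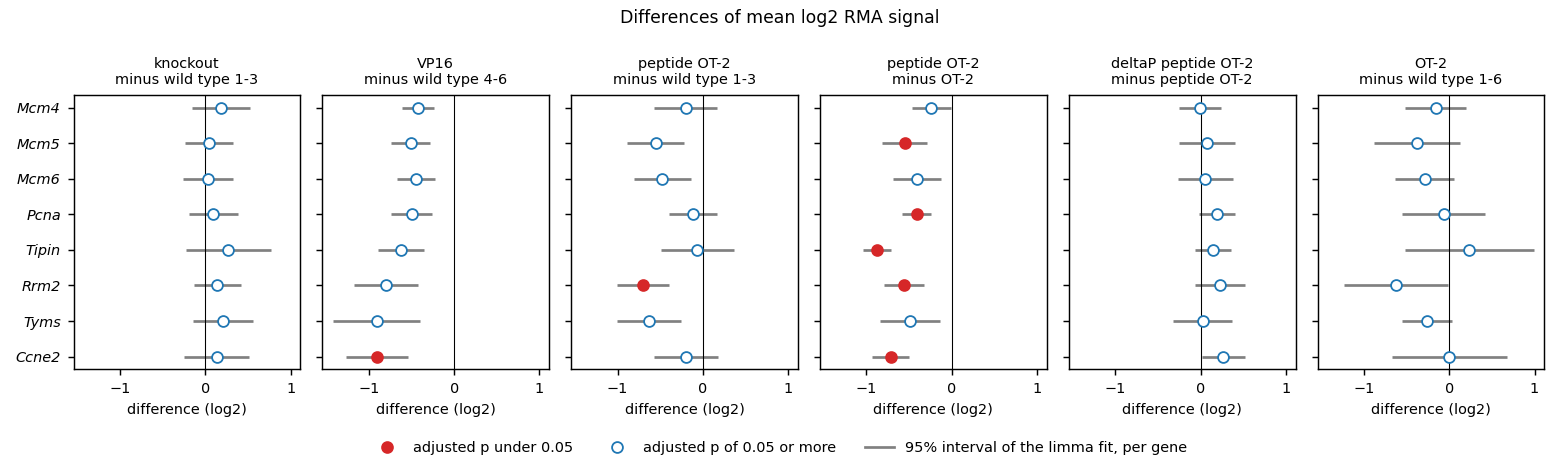
Difference of mean log2 RMA signal (horizontal axis) of the 8 genes in 6 comparisons, with the 95% interval of the limma fit, and filled points where the adjusted p was under 0.05. All 8 points lie left of 0 in VP16 and in both comparisons of peptide OT-2, and right of 0 in knockout.

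Whether the VP16 and the knockout effects differ was tested in 1 fit of 12 arrays, each effect against its own wild-type arrays. The VP16 effect lay below the knockout effect for all 8 genes, by 0.48 on the log2 scale or more: the difference was -0.48 ± 0.16 for Mcm6, -0.55 ± 0.16 for Mcm5, -0.59 ± 0.17 for Pcna and -0.60 ± 0.18 for Mcm4. It was -0.89 ± 0.27 for Tipin, -0.94 ± 0.22 for Rrm2, -1.04 ± 0.25 for Ccne2 and -1.12 ± 0.30 for Tyms (SE). Without a block 0 of the 8 passed (limma, adjusted p from 0.0699 to 0.233), with 0.802% of all probe sets passing, 0.325% with the VP16 effect lower, and all 8 had an unadjusted p under 0.05. Same-numbered knockout and wild-type arrays deviated together, and with the number as a block in those pairs Tipin (limma, adjusted p = 0.0218) and Ccne2 (adjusted p = 0.0365) passed. This block was chosen after seeing the data, and 649 of all 28923 probe sets passed with it, beside 232 without it. The VP16 direction enters the difference between the effects as well, so the sign is no independent evidence.

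Peptide injection of OT-2 mice, which the design text takes as negative selection, was set against untreated OT-2 mice. All 8 genes were lower on every peptide array than on every OT-2 array, and 5 of 8 fell: Tipin, Ccne2, Pcna, Rrm2 and Mcm5. Across all probe sets 19.5% passed in either direction, 10.1% as lower and 9.35% as higher, while 22.7% were lower on every array. The columns of both groups are on different scales, so scale and treatment cannot be told apart.

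Tipin read 8.84, 8.80 and 8.76 after peptide against 9.67, 9.61 and 9.74 in OT-2, a fall of -0.87 ± 0.07 (limma, adjusted p = 0.0044) to 54.6% of the OT-2 level. Ccne2 read 7.08, 7.37 and 7.26 after peptide against 8.02, 7.91 and 7.93 in OT-2 (-0.72 ± 0.09, limma adjusted p = 0.00806). In both genes the gap between the groups was larger than the range within either of them. The authors' deposited table of the peptide comparison also lists Tipin and Ccne2 as lower, and none of the other 6 genes. The authors' falls were weaker than those here for every gene, with folds of 0.598 for Tipin and 0.649 for Ccne2. Their fold was 0.739 for Rrm2 (0.678 here), 0.824 for Pcna (0.752 here) and 0.793 for Mcm5 (0.683 here). For the 6 genes not listed their q values ran from 6.41% (Rrm2) to 24.3% (Mcm4). Rrm2 read 10.21, 10.31 and 10.56 after peptide against 10.91, 10.88 and 10.97 in OT-2 (-0.56 ± 0.10, limma adjusted p = 0.015). Pcna read 11.33, 11.37 and 11.49 after peptide against 11.82, 11.78 and 11.82 in OT-2 (-0.41 ± 0.07, limma adjusted p = 0.0145). Mcm5 read 8.98, 8.97 and 9.35 after peptide against 9.68, 9.68 and 9.60 in OT-2 (-0.55 ± 0.11, limma adjusted p = 0.0207). The third peptide array was the highest of its group for each of these 3 genes.

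Mcm6 read 9.72, 9.86 and 10.17 after peptide against 10.39, 10.28 and 10.30 in OT-2 (-0.41 ± 0.12, limma adjusted p = 0.0512). Tyms, with 8.26, 8.51 and 8.83 after peptide and 8.97, 9.18 and 8.92 in OT-2, differed by -0.49 ± 0.15 (limma, adjusted p = 0.0576). Mcm4 stood closest, with 9.14, 9.06 and 9.39 after peptide and 9.42, 9.40 and 9.50 in OT-2, a difference of -0.24 ± 0.10 (limma, adjusted p = 0.126). These 3 genes did not pass. The count that passed was 8 without peptide replicate 3, 2 without OT-2 replicate 1 or 2, and 3 without OT-2 replicate 3. It was 4 after quantile normalization and 7 on median-centred arrays, with median differences of the 8 genes of -0.40 and -0.58. Of all 28923 probe sets 748 to 4655 passed with 1 array left out, fewest without OT-2 replicate 1. On median-centred arrays 6800 passed, beside 5631 in the main fit.

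Against wild-type arrays 1 to 3, which share a scale with the peptide arrays, the same injected OT-2 mice showed another order of genes. All 8 means were lower in peptide OT-2, but only Rrm2 fell, by 0.70 on the log2 scale to 61.5% of wild type (± 0.13 SE, limma adjusted p = 0.0235). Of all probe sets 5.76% passed, 2.28% as lower and 3.49% as higher. Rrm2, Tyms, Mcm5 and Mcm6 were lower on every peptide array, as were 11.8% of probe sets, with -0.63 ± 0.16 for Tyms, -0.55 ± 0.15 for Mcm5 and -0.48 ± 0.14 for Mcm6 (limma, adjusted p from 0.0639 to 0.0989). Tipin and Ccne2, which had the largest falls against OT-2, differed by -0.06 ± 0.19 and -0.20 ± 0.16, and Pcna by -0.12 ± 0.12. Peptide and OT-2 transgene change together here, and wild-type arrays 1 to 3 also serve the knockout comparison. The count that passed was 3 after quantile normalization, with dim probe sets left out, with a trended and robust variance and without peptide replicate 3. It was 0 without wild-type replicates 1 or 3 or peptide replicates 1 or 2. In all, 430 probe sets passed without wild-type replicate 3 and 2505 with dim ones left out, beside 1667 in the main fit.

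On that shared scale of 9 arrays the order of means was the same for all 8 genes, with knockout highest, wild type next and peptide OT-2 lowest. Knockout and wild-type arrays overlapped for all 8 genes, and wild-type and peptide arrays for Mcm4, Pcna, Tipin and Ccne2. Knockout arrays all lay above the peptide arrays for 7 of 8 genes, as for 12.9% of probe sets in this direction, the exception being Tipin, whose lowest knockout array and highest peptide array both read 8.84. The difference between knockout and peptide means ranged from 0.21 for Pcna to 0.84 for Rrm2, given as values without a test.

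The deltaP transgene was set against peptide OT-2, with both groups injected. The 8 genes differed little: 7 had higher means with deltaP, by 0.03 to 0.27, and Mcm4 differed by -0.002. Of 8 genes 0 passed (limma, adjusted p from 0.122 to 0.991), where 15.0% of all probe sets passed, 12.9% as lower and 2.12% as higher. At an unadjusted p under 0.05 the count was 1, Ccne2.

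Ccne2 read 7.64, 7.49 and 7.38 with deltaP against 7.08, 7.37 and 7.26 in peptide OT-2, with no overlap (0.27 ± 0.11, limma adjusted p = 0.122), as for 9.56% of probe sets in this direction. Rrm2 read 10.74, 10.39 and 10.64 with deltaP against 10.21, 10.31 and 10.56 in peptide OT-2 (0.23, 95% interval from -0.06 to 0.52). Pcna read 11.67, 11.48 and 11.61 with deltaP against 11.33, 11.37 and 11.49 in peptide OT-2 (0.19, interval from -0.02 to 0.40). In both, deltaP replicate 2 lay below the highest peptide array. Tipin read 8.99, 8.81 and 9.05 with deltaP and 8.84, 8.80 and 8.76 in peptide OT-2 (0.15, interval from -0.06 to 0.36). Mcm4 read 9.28, 9.11 and 9.20 with deltaP, Mcm5 9.42, 9.00 and 9.11, Mcm6 10.16, 9.80 and 9.95, and Tyms 8.72, 8.38 and 8.58, each overlapping the range of the peptide arrays given above. The deltaP columns have a scale of their own and the median over all probe sets was -0.10. With each array centred on its median, 3 of the 8 passed as higher, Ccne2 (0.46), Pcna (0.39) and Tipin (0.34). In that fit 4652 of all 28923 probe sets passed in either direction, beside 4349 without centring, and the median over all probe sets was 0.09. The count of the 8 genes thus depends on the scaling, and scale and transgene cannot be told apart.

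As values without a test, all 8 genes lay lower on every deltaP peptide array than on every array of untreated OT-2. The differences ranged from -0.72 for Tipin to -0.22 for Pcna, with a median of -0.40 beside -0.11 over all probe sets, and 35.1% of probe sets were likewise lower on every array. This pair crosses scales and shares the OT-2 arrays with the peptide comparison.

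Untreated OT-2 mice, which the design text takes as positive selection, were compared with all 6 wild-type arrays. Of 8 genes 0 passed (limma, adjusted p from 0.283 to 0.998), with 2.31% of all probe sets passing, 1.03% as lower, and 1, Rrm2, had an unadjusted p under 0.05. Rrm2 averaged 10.92 ± 0.04 in OT-2 (SD, n = 3), and ranged from 10.95 to 12.11 over the wild-type arrays, a difference of -0.62 ± 0.28 (SE). The authors' deposited table of OT-2 genes lists Rrm2 as lower (fold 0.668, q value 2.37%). Tyms (fold 0.780, q value 1.77%) and Mcm5 (fold 0.772, q value 3.77%) are not listed there. The authors' q values of the remaining genes ran from 20.3% (Mcm6) to 71.8% (Pcna). In the fit here the genes other than Rrm2 differed by -0.38 (Mcm5) to 0.24 (Tipin).

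This comparison rests on which wild-type arrays are used. Wild-type arrays 4 to 6 read higher than arrays 1 to 3 for all 8 genes, by 0.24 for Tyms to 1.15 for Tipin, with a median of 0.74 beside -0.07 over all probe sets. Arrays did not overlap between the wild-type sets for 7 of the 8 genes, Tyms being the exception, as for 29.8% of probe sets in this direction. Both sets carry the same labels but lie on different scales. Against wild-type arrays 4 to 6 alone all 8 genes passed as lower in OT-2, from -1.10 for Rrm2 to -0.34 for Tipin, in a fit where 52.8% of all probe sets passed in either direction. Against arrays 1 to 3 alone 2 passed, Tipin and Ccne2, with higher means in OT-2 by 0.81 and 0.52, where 27.0% of all probe sets passed.

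The 8 genes varied together from array to array within several groups, though not in all. In wild-type arrays 4 to 6 the lowest array was replicate 4 for 4 genes and replicate 6 for 3. VP16 replicate 1 was the highest and replicate 2 the lowest of the group for all 8 genes, with mean deviations of 0.24 and -0.29 from the group mean. Wild-type replicate 1 was the highest of arrays 1 to 3 for all 8 (0.23), and knockout replicate 3 was the lowest of its group for 7 (-0.14). In deltaP, replicate 1 was the highest and replicate 2 the lowest for 7 genes each. The mean deviations of the 3 OT-2 arrays from their group mean ranged from -0.0084 to 0.0105. Over all probe sets the mean deviation of an array was at most 0.02 in size. RMA brings arrays to a common scale, so this value is no baseline for the 8 genes. The 131 other cell cycle genes described below deviated by 0.25 and -0.33 on VP16 replicates 1 and 2. On wild-type replicate 1 and knockout replicate 3 those 131 genes deviated by 0.30 and -0.20. Tyms spread most in VP16, with an SD of 0.52, against 0.12 for Mcm4.

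**Figure D3:**
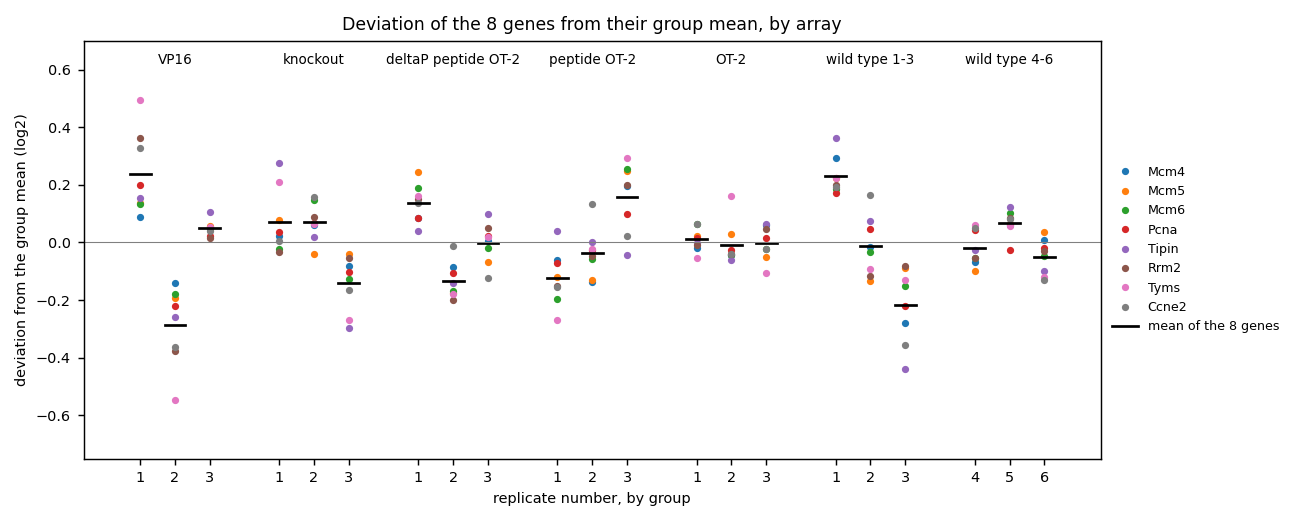
Deviation of each of the 8 genes from its group mean (log2, vertical axis) on the 21 arrays, by group and replicate number, with the mean of the 8 genes as a bar. The genes shift together in VP16, where the mean is 0.24 in replicate 1 and -0.29 in replicate 2, while the OT-2 means lie from -0.0084 to 0.0105.

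Over the 15 arrays of the knockout, peptide OT-2, VP16 and wild-type groups, centred within each scale, each gene was correlated with the mean of the other 7. Pearson's r ranged from 0.828 for Tipin to 0.966 for Tyms, and pairs of members had a median r of 0.879 (from 0.691 to 0.972). The named genes closest to the mean of the 8 were Racgap1 (r = 0.986), Ccna2 (0.985), Ncapg2 (0.985), Arhgap19 (0.983) and Bub1 (0.982), while the median over all probe sets was -0.10. Ccna2 codes for cyclin A2, Racgap1 for a regulator of cytokinesis, Ncapg2 for a condensin subunit and Bub1 for a spindle checkpoint kinase. These points share arrays and group differences, and most named genes were listed by the authors on the same arrays, so the values are a description.

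Other genes of the cell cycle were counted in 6 lists, of which 131 of 187 genes were named here, 120 of them because the authors listed them as lower in VP16. In VP16, 34 of the 131 fell and 1 rose, with a median of -0.75. Over all probe sets 0.736% passed as lower, and nothing is read from the gap, since the listing that named most of these genes used the same arrays. The replication origin and helicase list had 4 of 14 that fell, among them Orc6 (-0.61 ± 0.10), of the origin recognition complex, and Donson (-0.42 ± 0.06). In the polymerases and fork list 7 of 18 fell, with Rfc4 (-0.78 ± 0.11), which loads the clamp, and Pole2 (-0.67 ± 0.09), a subunit of polymerase epsilon. Of the nucleotide supply list 4 of 6 fell: Tk1 (-0.74 ± 0.12), thymidine kinase, Rrm1 (-0.69 ± 0.11), the large partner of Rrm2, Dut (-0.63 ± 0.08), which removes dUTP, and Nme1 (-0.38 ± 0.07), a nucleoside diphosphate kinase. Of the G1/S regulators 3 of 13 fell, E2f3 (-0.67 ± 0.11), E2f2 (-0.55 ± 0.10) and Rbl1 (-0.45 ± 0.07), and Rbl2, a pocket protein of quiescent cells, rose by 0.43 ± 0.08 (limma, adjusted p = 0.0421). Replication-coupled chromatin and repair had 7 of 22 that fell, such as Nasp (-0.58 ± 0.10), a histone chaperone, and Usp1 (-0.57 ± 0.09). In mitosis 9 of 58 fell, with Depdc1a (-1.09 ± 0.18), Cenpk (-1.03 ± 0.15) and Plk4 (-0.77 ± 0.12), the last a centriole kinase. All these passed limma at adjusted p from 0.0203 to 0.0481, and for the listed genes the direction was fixed by the listing.

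In knockout 0 of the 131 genes passed in any list, while 118 had higher means, with a median of 0.22 beside -0.02 over all probe sets. Of all probe sets 56.0% had lower means in knockout. Among wild-type arrays 1 to 3, replicate 1 was the highest for 126 of the 131 genes and replicate 3 the lowest for 97. The genes thus shift together by array and are not separate observations. The list medians were 0.29 for mitosis (58 of 58 higher), 0.20 for chromatin and repair, 0.18 each for origin and helicase and for polymerases and fork, 0.08 for G1/S regulators and -0.05 for nucleotide supply. Orc1 had the largest difference of the origin genes (0.68 ± 0.15, limma adjusted p = 0.131), and Rfc1, the large clamp loader subunit, that of the fork genes (0.63 ± 0.12, limma adjusted p = 0.0788). Rbl2, which passed as higher in VP16, differed by 0.43 in knockout as well, without passing (limma, adjusted p = 0.27). Rfc1 (-0.77 ± 0.14), Pola1 (-1.23 ± 0.25), for the catalytic subunit of polymerase alpha, Smc2 (-1.02 ± 0.18) and Ect2 (-1.19 ± 0.24) were the 4 that passed in the test of VP16 against knockout effects, with the VP16 effect the lower one (limma, adjusted p from 0.0201 to 0.0463).

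After peptide, 48 of the 131 fell against OT-2 and 1 rose, where 10.1% of all probe sets passed as lower and 9.35% as higher. The 131 genes were named through the authors' tables, with 13 listed as lower after peptide and 24 as lower in OT-2. Nothing is read from the gaps to all probe sets in this paragraph, since the naming used arrays that are tested here. All 6 nucleotide supply genes fell, among them Dck (-0.51 ± 0.08), deoxycytidine kinase, and Tk1 (-0.50 ± 0.09). Of the other lists 6 of 14 origin, 9 of 18 fork, 1 of 13 G1/S, 7 of 22 chromatin and repair and 19 of 58 mitosis genes fell. Against wild-type arrays 1 to 3, 21 fell and 2 rose, where 2.28% of all probe sets passed as lower and 3.49% as higher. The list counts of genes that fell were 3, 2, 1, 6, 3 and 6 in the order origin, fork, nucleotide, G1/S, chromatin and mitosis. The G1/S regulators split there: E2f2 (-1.29 ± 0.17) and E2f7 (-0.83 ± 0.15), both E2F factors, fell, while Ccnd2, for cyclin D2, rose by 1.98 ± 0.36 and Myc, for the growth-promoting transcription factor, by 1.31 ± 0.24 (limma, adjusted p from 0.00816 to 0.0222). Ccnd2 was also the gene that rose against OT-2 (1.40 ± 0.38, limma adjusted p = 0.0425). Myc differed by 0.05 against OT-2, E2f7 by -0.04 and E2f2 by -0.31, and none of these passed (limma, adjusted p from 0.0623 to 0.902). In the comparison with wild type, peptide and OT-2 transgene change together. With deltaP, Myc fell by 1.39 on the log2 scale (± 0.29 SE, limma adjusted p = 0.0216) against peptide OT-2, and Dck (0.56 ± 0.09), Ckap2 (0.41 ± 0.11) and Ccnb2 (0.39 ± 0.10) rose, with 1 lower and 3 higher calls in the 6 lists. Of all probe sets 12.9% passed as lower and 2.12% as higher there. The deltaP and peptide OT-2 columns lie on different scales, so scale and transgene cannot be told apart in these calls. In OT-2 against wild type 6 fell, where 1.03% of all probe sets passed as lower: Rb1 (-0.63 ± 0.11), E2f2 (-0.80 ± 0.17), E2f8 (-0.78 ± 0.17), Donson (-0.89 ± 0.18), Chaf1a (-0.47 ± 0.10) and Incenp (-0.69 ± 0.13).

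**Figure D4:**
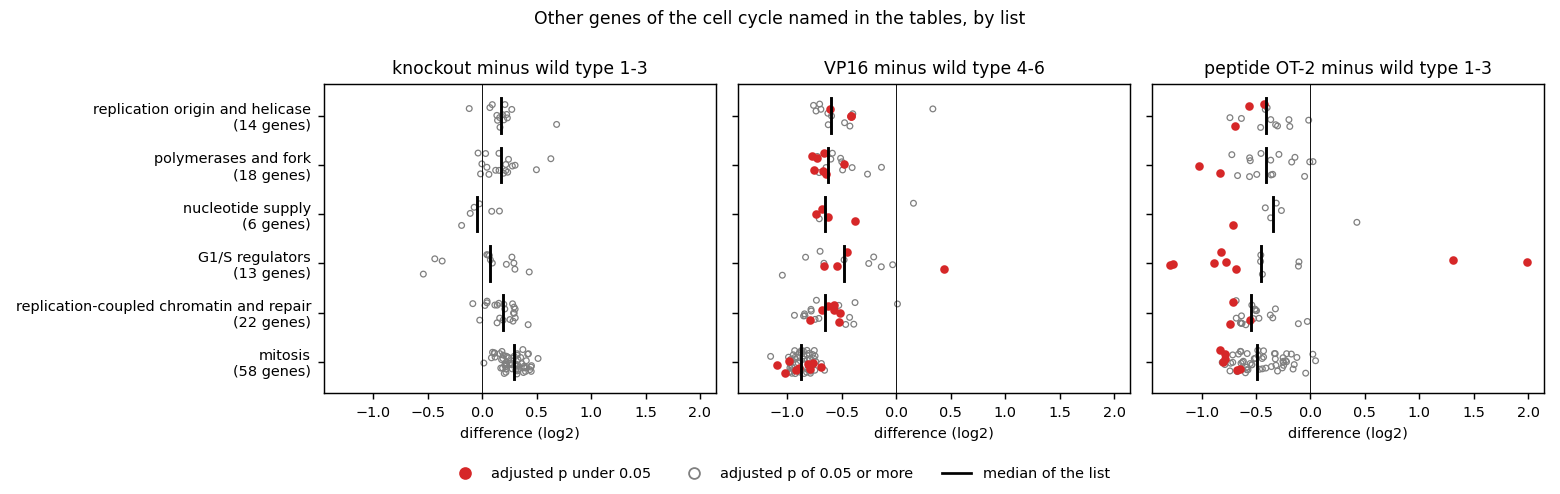
Difference of mean log2 RMA signal (horizontal axis) of the 131 named genes in 6 lists, in 3 comparisons, with filled points at adjusted p under 0.05 and bars at list medians. In VP16 nearly all points lie left of 0 with a median of -0.75 over all lists, and in knockout most lie right of it (0.22). In peptide OT-2 against wild-type arrays 1 to 3, Ccnd2 and Myc stand at 1.98 and 1.31.

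The labelled cell type was checked with markers. A marker was named only if the authors' tables of changed genes, made from arrays used here, hold it. The named markers are thus a selected part of each list, and nothing is read from how many passed. Over all probe sets, in either direction, 0.809% passed in knockout, 1.43% in VP16 and 2.31% in OT-2 against wild type. The share was 19.5% for peptide OT-2 against OT-2, 5.76% against wild type and 15.0% with deltaP. Of 14 double-positive genes 8 were named, Cd4, Cd8b1, Rag1, Rag2, Ptcra, Themis, Arpp21 and Aqp11, and their mean log2 signal per array was 11.39 to 11.48 in VP16 and 11.30 to 11.39 in wild-type arrays 4 to 6. It was 10.53 to 10.57 in knockout, 10.43 to 10.52 in peptide OT-2 and 10.83 to 11.03 in wild-type arrays 1 to 3. Of these 8 genes 1 fell in knockout, 1 rose in VP16, and 5 fell and 1 rose in peptide OT-2 against wild type. In peptide OT-2 against OT-2 2 fell, with deltaP 2 rose, and in OT-2 against wild type 1 fell. The 5 named of 7 double-negative genes averaged 7.40 to 7.77 in VP16 and 6.93 to 7.35 in wild-type arrays 4 to 6, and 2 of them rose. In OT-2 against wild type 4 of these 5 rose, with a median difference of 1.35, and in peptide OT-2 against wild type 3 rose (median 0.82), while 1 fell after peptide against OT-2 and 2 fell with deltaP. The 5 named of 8 mature single-positive genes averaged 8.90 to 9.26 in peptide OT-2 and 7.59 to 7.82 in wild-type arrays 1 to 3, and 4 of them rose. In VP16 2 of these mature genes rose and 1 fell, in knockout 2 rose, in OT-2 against wild type 1 rose, after peptide against OT-2 1 rose and 1 fell, and with deltaP 2 fell. Gzma, the one named of 5 NK genes, read 10.22 to 10.39 in VP16 and 8.79 to 8.94 in wild-type arrays 4 to 6, and rose. Of the B cell list 2 of 8 genes were named, and 1 rose in VP16 and 1 fell after peptide against OT-2. Of the myeloid list 2 of 10 were named, of which 0 passed in VP16, 1 rose in knockout and 1 fell with deltaP, and no gene of the erythroid and stromal lists was named. The part of these shifts in the S-phase values was not tested.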

How the data were processed

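The authors deposited log2 RMA signals for 21 arrays, made, per the submitters' processing notes, with RMA, and with Affymetrix Expression Console for deltaP. The design text states that normalization followed each binary comparison. The authors' deposited tables give a fold (a ratio of treated over control), a SAM d score and a q-value in percent. Their versions are not stated there.

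Of 35556 rows, 6612 below the first main probe set, where 0 of the authors' 2301 rows lie, were left out as controls, with 21 second probe sets of named genes, and 28923 were tested. Names came through the authors' tables and RefSeq (1918 by accession, 116 by symbol, 61 by synonym, 37 as in the file, with 160 unnamed and 9 with several names, counted before second probe sets were removed). Comparisons were fitted on their own arrays with limma 3.58.1 (lmFit, eBayes) in R 4.3.3, with Benjamini-Hochberg adjustment over all rows and a threshold of 0.05. Intervals are the fit's and are not adjusted. The code was tested on simulated data. Tables and figures used python 3.11.15, numpy 2.4.6, pandas 2.3.3 and matplotlib 3.10.9.

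Other genes were named when called (up to 4 per list and comparison by adjusted p, or 2 by size where none was). Some genes that this rule chose are left out of the text. Likeness to the members is Pearson's r over 15 arrays centred within each scale. The members and lists were chosen with earlier results of these data known. Replicate numbers pair arrays where same-numbered deviations all correlate above 0.1: knockout and wild type did (0.25 to 0.42), the others did not. The design text calls replicates biological for 18 arrays, and for deltaP nothing says so. Alternatives were other scalings, a filter on dim rows, a trended robust variance, a replicate block, other wild-type arrays and leaving out each array.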

Additional observations from a re-analysis of the deposited data

How the results depend on the processing

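Of 712 refits of single genes, 590 kept direction and side of the threshold, 63 newly passed, 22 no longer passed and 37 changed sign. No cause of these changes was tested. The genes that passed in VP16 numbered 0 after quantile normalization, 5 on median-centred arrays, 8 with dim rows left out, 6 with a trended robust variance, 0 against all 6 wild-type arrays, and 0 to 8 with 1 array left out. For the VP16 effect minus the knockout effect 2 passed with dim rows left out, 1 with a trended robust variance, 0 to 3 with 1 array left out (2 without wild-type replicate 1, 3 without VP16 replicate 1) and 2 with a replicate block in the knockout pairs, an alternative chosen after seeing the data. For peptide OT-2 against OT-2, 4 passed after quantile normalization, 7 on median-centred arrays and 2 to 8 with 1 array left out. Against wild-type arrays 1 to 3, 3 passed after quantile normalization, with dim rows left out and with a trended robust variance, and 0 to 3 with 1 array left out. For deltaP 3 passed on median-centred arrays, where 4652 of all 28923 rows passed. For OT-2, 2 passed with wild-type arrays 1 to 3 alone and 8 with arrays 4 to 6 alone, where 7806 and 15260 of all 28923 rows passed. Both fits are without a block, and the replicate block fit uses the same arrays as the first.

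Signs turned in knockout against all 6 wild-type arrays, of which arrays 4 to 6 lie on another scale and read higher for all 8 genes (Mcm4 -0.0101, Mcm5 -0.34, Mcm6 -0.19, Pcna -0.26, Tipin -0.30, Rrm2 -0.34, Ccne2 -0.38), and with 1 array left out the ranges were -0.027 to 0.15 for Mcm5, -0.041 to 0.13 for Mcm6, -0.0145 to 0.18 for Pcna and -0.047 to 0.23 for Ccne2. In OT-2 Ccne2 was -0.063 on median-centred arrays and -0.51 against arrays 4 to 6, where Tipin was -0.34. Against arrays 1 to 3 and in the replicate block, Mcm4 was 0.035 and Pcna 0.29. With 1 array left out, Ccne2 ranged from -0.17 to 0.12 and Pcna from -0.18 to 0.014. In peptide OT-2 against wild type Tipin ranged from -0.28 to 0.12. In deltaP Mcm6 was -0.021 after quantile normalization and Mcm4 was 0.19 on median-centred arrays, and with 1 array left out Mcm4 ranged from -0.070 to 0.096, Mcm5 from -0.048 to 0.20, Mcm6 from -0.042 to 0.18 and Tyms from -0.11 to 0.17.

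Over all rows the number that passed ranged from 107 to 311 in knockout (234 as reported), 34 to 1720 in VP16 (413), 94 to 649 in the difference of both (232), 51 to 15260 in OT-2 (668), 748 to 6800 in peptide OT-2 against OT-2 (5631), 430 to 2505 against wild type (1667) and 846 to 4652 in deltaP (4349). The replicate block left the member counts at 0 in knockout, 5 and 1 in the peptide comparisons and 0 in deltaP, where the numbers outside knockout pair no arrays. The lowest-mean probe set gave no value, since each gene has 1 probe set. With 3 arrays a group, the number of arrays limits the precision.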
